A study of Mus musculus with 8 samples.

Results

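The cytosolic ribosomal protein genes were described here by the signal of Flag-tagged HoxB4 at and around their starts. Members were chosen by symbol in the annotation of 2 promoter arrays: every Rpl or Rps symbol followed by a digit, plus Rplp1, Rplp2 and Rpsa, with the Rps6k kinases left out. This gave 81 of the 16908 gene symbols on the arrays, 48 of the large subunit and 33 of the small subunit, with 36 on one array and 45 on the other. The subunits follow the symbols, and the small-subunit count takes in 1 symbol that names no structural ribosomal protein. The gene group was singled out because measured values of this same contrast had stood high for Rpl genes, so all values of Flag-IP over input below are descriptions, with no test. Rplp0 was not found under that symbol. RefSeq lists Arbp as a synonym with the same transcript, and Arbp is given apart and not counted.

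The single group of cells was hematopoietic progenitors derived in culture from the mouse embryonic stem cell line B6N-22UTR. Embryoid bodies were grown for 6 days, c-Kit+CD41+ precursors were placed on OP9 stroma and infected with a retrovirus for 3xFLAG-HoxB4, and c-Kit+ cells were taken by magnetic sorting on coculture day 12. All cells therefore overexpressed HoxB4 from a retrovirus, and no cells without the tag were hybridised to the promoter arrays used here. DNA immunoprecipitated through the Flag tag (Flag-IP, Cy5) was hybridised against input DNA of the cells (Cy3) after T7 amplification, on 1 array for each of 2 sets of promoters, so every gene has 1 sample and no replicate. The 6 expression arrays of the series are not described here, as no table pairing their probe sets with genes was used.

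Ribosomal proteins are the protein part of the ribosome, the machine that reads mRNA into protein. The large subunit joins amino acids and the small subunit decodes the message, and both are built in the nucleolus from roughly equal amounts of their proteins. Blood progenitors are sensitive to ribosome supply, as the human anaemias caused by loss of 1 copy of a ribosomal protein gene show. HoxB4 is a homeodomain transcription factor that expands blood stem and progenitor cells, and homeodomains bind short DNA sites with a TAAT core.

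The arrays held 237195 and 237185 probes, with a median spacing of 182 bp. All values are log2 ratios of the processed Flag-IP signal over the processed input signal, centred on the median of each array. The highest window of a gene is the highest median of 3 neighbouring probes, at least 1 of them annotated to the gene. Its distance is that of the central probe or, where that probe is not annotated to the gene, the mean of those that are. The near-start mean is the mean over probes within 500 bp of the gene start, and the inside-gene mean is the mean over probes from 1000 to 2500 bp inside the gene. The SD of such a mean is over the probes of 1 array and is no replicate error. Distances from the start are those of the array annotation, and no source used here names the genome build behind the array coordinates. Of the 383 probes within 500 bp of a member's start, 99.2% were well above background in both channels, and no probe was saturated.

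The promoter sequences of the 4 members with the highest windows and the 2 members with the lowest near-start means among those with a RefSeq promoter are printed below, because the results turn on these ends of the range. Each runs 5′ to 3′ on the gene's strand from 250 bases before to 50 bases after the start (RefSeq, build GRCm38.p6). Capitals mark TAAT, the homeodomain core, on either strand (ATTA on the other) and TATAAA, the letters of the TATA box, on either strand. Both were marked wherever they fall in the stretch, so a marked TATAAA need not be a TATA box.
Rps4x (chrX:102189342-102189641, minus strand): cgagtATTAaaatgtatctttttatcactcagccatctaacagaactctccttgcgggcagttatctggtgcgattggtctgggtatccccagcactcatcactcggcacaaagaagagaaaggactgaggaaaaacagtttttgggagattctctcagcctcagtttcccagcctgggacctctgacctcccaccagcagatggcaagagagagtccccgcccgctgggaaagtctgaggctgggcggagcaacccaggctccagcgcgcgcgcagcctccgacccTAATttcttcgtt
Rpl39 (chrX:37085173-37085472, minus strand): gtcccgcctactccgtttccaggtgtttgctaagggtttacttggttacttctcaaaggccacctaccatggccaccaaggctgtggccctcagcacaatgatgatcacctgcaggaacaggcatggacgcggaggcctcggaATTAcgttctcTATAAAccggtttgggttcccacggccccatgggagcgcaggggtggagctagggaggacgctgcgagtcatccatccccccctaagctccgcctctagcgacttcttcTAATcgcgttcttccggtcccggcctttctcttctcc
Rpl36a (chrX:134585404-134585703, plus strand): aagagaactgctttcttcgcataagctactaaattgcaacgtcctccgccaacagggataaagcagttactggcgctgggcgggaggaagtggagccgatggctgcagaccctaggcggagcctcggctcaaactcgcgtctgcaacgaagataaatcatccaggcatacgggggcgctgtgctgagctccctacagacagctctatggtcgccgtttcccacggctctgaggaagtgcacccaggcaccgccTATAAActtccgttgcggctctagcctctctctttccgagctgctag
Rpl13a (chr7:45128696-45128995, minus strand): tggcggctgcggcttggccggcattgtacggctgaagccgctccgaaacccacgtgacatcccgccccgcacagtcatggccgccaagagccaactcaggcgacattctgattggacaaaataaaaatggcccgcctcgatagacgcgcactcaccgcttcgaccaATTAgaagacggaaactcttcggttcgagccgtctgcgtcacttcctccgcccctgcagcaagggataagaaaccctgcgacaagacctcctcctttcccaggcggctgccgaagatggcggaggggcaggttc
Rpl31 (chr1:39367601-39367900, plus strand): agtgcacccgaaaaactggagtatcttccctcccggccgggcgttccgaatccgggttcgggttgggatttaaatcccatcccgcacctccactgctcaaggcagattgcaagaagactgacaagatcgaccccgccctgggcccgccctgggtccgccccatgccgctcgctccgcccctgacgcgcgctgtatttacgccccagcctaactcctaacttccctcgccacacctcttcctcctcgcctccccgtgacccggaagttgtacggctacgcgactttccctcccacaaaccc
Rpl15 (chr14:18270937-18271236, minus strand): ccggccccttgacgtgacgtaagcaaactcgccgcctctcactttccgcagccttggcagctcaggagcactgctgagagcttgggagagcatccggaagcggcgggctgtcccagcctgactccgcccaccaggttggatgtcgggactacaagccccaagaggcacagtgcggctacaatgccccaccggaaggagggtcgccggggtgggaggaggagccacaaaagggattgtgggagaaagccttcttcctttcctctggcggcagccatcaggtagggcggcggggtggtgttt

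Rps4x and Rpl39 each held 2 TAAT cores, Rpl13a held 1, and Rpl36a, Rpl31 and Rpl15 held 0. Rpl39 and Rpl36a each held 1 TATAAA, well upstream of the annotated start in Rpl39 and just after it in Rpl36a. The highest windows of Rps4x and Rpl36a were centred upstream of the printed stretch, at -575 and -374 bp, and those of Rpl31 and Rpl15 lay inside the gene, at 1168 and 2851 bp.

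Vertebrate ribosomal protein transcripts typically begin in a run of pyrimidines, the terminal oligopyrimidine tract, which places their translation under growth signalling. The 41 bases around the start are shown for the 11 members whose pyrimidine run there was 12 bases or longer, ordered by near-start mean, so that these runs can be set beside the HoxB4 values. The annotated start is the 21st base of each stretch, and the runs of Rpl31, Rps25 and Rpl4 end before it, while that of Rpl13a begins after it, so these runs need not be the first bases of the transcript. Capitals mark the run of C and T, as far as it falls in the stretch (RefSeq, GRCm38.p6).
Rpl7a (chr2:26910787-26910827, plus strand): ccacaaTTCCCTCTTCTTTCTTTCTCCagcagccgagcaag
Rpl35a (chr16:33056462-33056502, plus strand): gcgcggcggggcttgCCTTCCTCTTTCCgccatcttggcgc
Rpl13a (chr7:45128725-45128765, minus strand): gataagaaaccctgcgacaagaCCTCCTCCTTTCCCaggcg
Rps25 (chr9:44407694-44407734, plus strand): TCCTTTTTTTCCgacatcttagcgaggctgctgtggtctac
Rpl27a (chr7:109519175-109519215, plus strand): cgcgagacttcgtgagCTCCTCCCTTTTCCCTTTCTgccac
Rpl35 (chr2:39005111-39005151, minus strand): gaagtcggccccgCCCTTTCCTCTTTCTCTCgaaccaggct
Rpl4 (chr9:64173367-64173407, plus strand): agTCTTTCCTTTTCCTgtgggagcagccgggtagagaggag
Rpl14 (chr9:120571497-120571537, plus strand): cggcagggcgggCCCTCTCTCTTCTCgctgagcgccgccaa
Rps10 (chr17:27635224-27635264, minus strand): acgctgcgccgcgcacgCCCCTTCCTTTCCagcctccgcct
Rpl15 (chr14:18270966-18271006, minus strand): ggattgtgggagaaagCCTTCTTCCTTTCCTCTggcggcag
Rpl31 (chr1:39367831-39367871, plus strand): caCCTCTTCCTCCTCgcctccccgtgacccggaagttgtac

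The near-start means of these 11 members covered nearly the whole range, with 1.97 at Rpl7a, 0.80 at Rpl27a and 0.10 at Rpl31. A run of 8 or more C and T bases near the start was present in 38.9% of the 72 member promoters, against 13.7% of the 16358 promoters of genes on the arrays. Members with such a run had a median near-start mean of 0.91 (n = 28), and members without one had 0.90 (n = 33).

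Most members carried Flag-HoxB4 signal, and it was moderate in size. The median highest window was 1.47 over the 81 members (quartiles 1.17 and 1.75), against 0.91 over 16693 genes with a window (quartiles 0.55 and 1.28). A window of 1 or more, which is a Flag-IP signal at least 2 times the input, was present in 66 of 81 members (81.5%), where the background over all genes was 43.3%. A total of 9 members (11.1%) reached a window of 2 or more, against a background of 3.15%. The rule used these values, so nothing is read from these shares. The 7 members around the limit of 2 were Rpl8 at 2.16, Rpl13 at 2.06 and Rpl36 at 2.01 just inside it, and Rps9 at 1.99, Rpl5 at 1.95, Rpl22l1 at 1.89 and Rpl38 at 1.88 just outside it.

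Close to the start most members had values above 0 and fewer reached 1. The median near-start mean was 0.90 over the 81 members (SD over members 0.44, range -0.08 to 2.13), against 0.32 over 16236 genes. A near-start mean of 1 or more was found in 32 members (39.5%), with a background of 11.5%. Rpl17 alone among the members lay below 0, against 26.8% of all genes. The rule used these values as well, so nothing is read from these shares. In 52 members every probe within 500 bp of the start was above 0, which held for 35.6% of all genes. Of depleted windows there were fewer. A total of 32 members (39.5%) had a window of -1 or less, where the background was 54.8%, and Rpl30, at -2.38, was the single member with a window of -2 or less, against 11.6% of all genes.

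Input brightness moved with part of this difference, and its part in the result was not tested. The median input near the start was 10.32 on the log2 scale for the members and 10.02 for all genes. The 5896 genes whose input lay between the quartiles of the members had a median near-start mean of 0.50, and 17.1% of them reached 1. With the trend of the log ratio with brightness removed by loess, the members' median near-start mean was 0.58 and that of all genes 0.19, and 47 members (58.0%) had a window of 1 or more, against 35.5% of all genes. Among the 81 members themselves, the near-start mean ran slightly against input (Spearman's rho -0.28), while it ran with input over all genes (rho 0.34). The points of each correlation share 2 arrays.

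**Figure D1:**
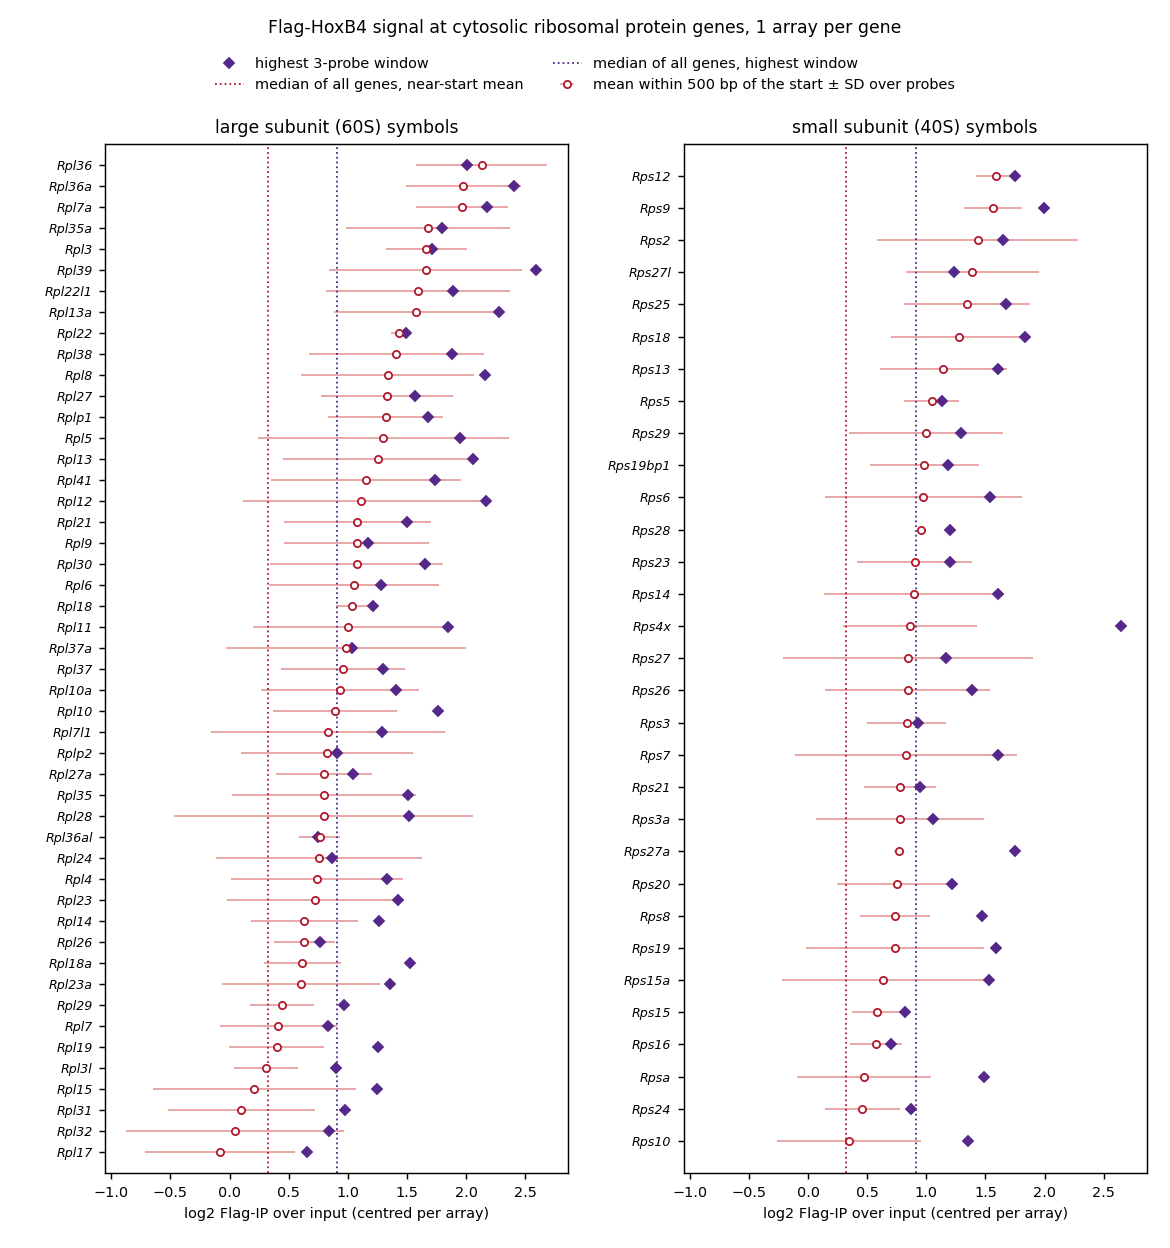
Highest 3-probe window (diamonds) and mean within 500 bp of the start with its SD over probes (circles and bars) for 79 of the 81 members, in log2 Flag-IP over input, with the large subunit on the left and the small subunit on the right. Dotted lines are the medians of all genes, 0.32 for the near-start mean and 0.91 for the highest window, and 74 of the 79 circles lie right of the first line.

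By highest window, 3 of the 4 X-linked members led the list, and near the start they were mixed. Rps4x, a small-subunit protein gene, had the highest window of all members, 2.65 (probes from 1.66 to 3.19), on chromosome X from 98391426 to 98391867 in the coordinates of the files, centred at -575 bp from the start. Its steepest probe, at -755 bp, had a Flag-IP signal of 3420 and an input signal of 358. The signal was low at the start itself, with 0.67 at -93 bp and 0.53 at 225 bp, so the near-start mean was 0.86 ± 0.57 (SD, 5 probes). The peak of Rps4x thus lay upstream of the start, not on it.

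Rpl39, which encodes a small protein at the exit tunnel of the large subunit, had a window of 2.59 (probes from 0.85 to 3.00) on chromosome X from 33516637 to 33516910, within the promoter. Its probe at -30 bp had a Flag-IP signal of 4593 and an input signal of 548, while the probe at -150 bp between 2 high ones stood at 0.85 with a bright input of 3586. The near-start mean of Rpl39 was 1.66 ± 0.81 (SD, 7 probes). Rpl36a, another large-subunit gene, had a window of 2.40 on chromosome X from 129931488 to 129931796, and all of its probes from -784 to 497 bp were at 1.36 or above. Further inside Rpl36a the probes stood at 0.80 at 667 bp, -0.15 at 797 bp, 0.60 at 938 bp and 0.97 at 1052 bp, and its near-start mean was 1.97 ± 0.49 (SD, 6 probes). The window is also annotated to Btk, the B-cell kinase gene, whose start lies 2572 bp away and whose own near-start mean was 0.94.

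Rpl10, which encodes a large-subunit protein needed for subunit joining, had a window of 1.76 at -689 bp, member rank 19, and a near-start mean of 0.89, rank 42 of 81. Rps4x was at rank 43 near the start. Over the 558 genes of chromosome X with a window, the median highest window was 0.85, and 5.38% of them reached 2. All 4 X-linked members lay above that median. Input near the start was dim on this chromosome, with a median of 9.49 on the log2 scale for the 4 members and 9.33 for genes on X. Whether dim input raised these ratios was not tested.

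**Figure D2:**
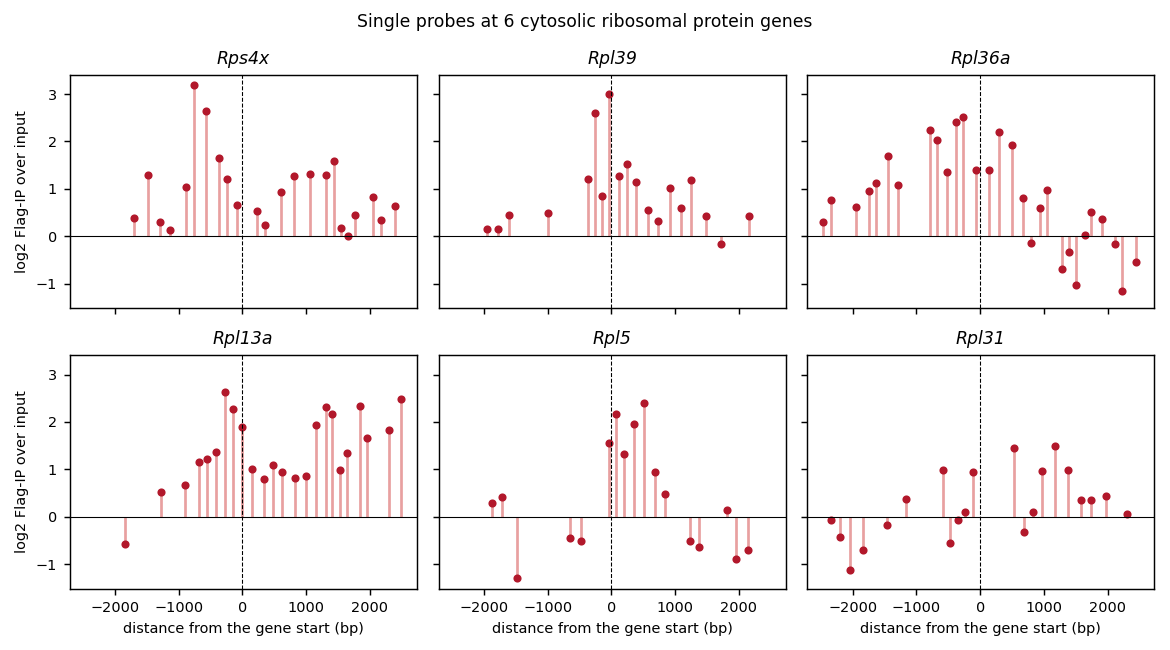
Log2 Flag-IP over input of single probes against distance from the gene start in bp for 6 members, where each point is 1 probe and stems run to 0. Rps4x peaked upstream, Rpl39 at the start, Rpl5 from the start to 516 bp inside the gene, Rpl36a over a block on both sides, Rpl13a at the start and again inside the gene, and Rpl31 had low values near the start and its highest probes inside the gene.

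Large-subunit genes held 8 of the 9 windows of 2 or more. That is 8 of 48 large-subunit genes (16.7%) and 1 of 33 small-subunit genes (3.03%), where the background was 3.15%. The split hangs on the limit, as the small-subunit gene Rps9 missed it at 1.99, and nothing is read from it. Rpl13a, whose protein also takes part in interferon-gamma controlled translational silencing, had a window of 2.27 on chromosome 7 from 44996763 to 44997080, with probes of 2.63 at -281 bp, 2.27 at -151 bp and 1.89 at -8 bp. Rpl7a, another large-subunit gene, had a window of 2.17 on chromosome 2 from 26732326 to 26732746. The last probe of this window, at -92 bp, is the only one of its probes annotated to Rpl7a, so the window is centred further upstream. The near-start mean of Rpl7a was 1.97 ± 0.39 (SD, 3 probes), and the opposite gene Surf5, which starts 164 bp away, had 1.91 over a span that overlaps it. These probes cannot tell which of the paired starts carries the signal.

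Rpl12, a protein of the stalk base, had a window of 2.17 at 442 bp, and Rpl8, which lies near the catalytic centre, had 2.16 at 775 bp. Rpl13 had 2.06 at 991 bp and a single probe of 2.29 at -69 bp. These 3 genes had their highest window just inside the transcribed gene. Rpl36, a large-subunit gene, had its window of 2.01 at -3335 bp, in a stretch it shares with 2410015M20Rik, whose start lies 3662 bp away and whose near-start mean was 1.72. Its own start was also covered, with the highest near-start mean of the members, 2.13 ± 0.55 (SD, 3 probes). Rps9, a small-subunit protein that acts in decoding accuracy, had a window of 1.99 at 2124 bp and a near-start mean of 1.57 ± 0.25 (SD, 6 probes).

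By near-start mean the leading members were Rpl36, Rpl36a, Rpl7a, Rpl35a, Rpl3, Rpl39, Rps12, Rpl22l1, Rpl13a and Rps9, with values between 1.57 and 2.13. Rpl3, whose protein reaches towards the catalytic centre, had 1.66 ± 0.35 (SD, 7 probes). Rps12, a small-subunit gene, had the smallest spread among these leading genes, with 4 probes between 1.38 and 1.75. Rpl35a had 1.68 ± 0.69 (SD, 5 probes), with probes from 1.01 to 2.73. The order within this group is loose, since neighbours differ by less than the SD over their probes.

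The members with the lowest near-start means had little signal at the start and some inside the gene. Rpl17 had probes of -0.50 and -0.75 upstream of its start and 0.39 and 0.53 after it, giving a near-start mean of -0.08 ± 0.63 (SD, 4 probes) and the lowest highest window, 0.65. Rpl32 had 0.05 ± 0.92 (SD, 5 probes), and its probe at -228 bp stood at -1.46 with an input signal of 14903, far brighter than its input of 471 at -114 bp. Rpl31 had 0.10, Rpl15 had 0.21 and the muscle-enriched Rpl3l had 0.31. From 1000 to 2500 bp inside the gene these 5 members had means of 0.55 for Rpl17, 0.58 for Rpl32, 0.61 for Rpl31, 0.48 for Rpl15 (1 probe) and 0.61 for Rpl3l. By highest window the lowest were Rpl17, Rps16 (0.70), Rpl36al (0.75), Rpl26 (0.76) and Rps15 (0.82). The probes of Rpl26, whose protein promotes p53 translation, all lay between 0.42 and 1.08 near the start, so a low window did not mean missing signal there.

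Further into the gene the members' mean stayed above 0. The means of the mitochondrial ribosomal protein genes, the translation initiation factor genes and all genes were near or below 0 there. With 1 array per gene, this difference was not tested. From 1000 to 1500 bp after the start the mean log2 ratio was 0.65 for the members, -0.07 for the mitochondrial ribosomal protein genes, -0.20 for the translation initiation factor genes and -0.06 for all genes. From 2000 to 2500 bp it was 0.30 for the members, 0.01 for the mitochondrial ribosomal protein genes, -0.12 for the initiation factor genes and -0.16 for all genes. Near the start the members and the mitochondrial set were close, with medians of 0.90 over 81 genes and 0.82 over 72 genes, and from 0 to 250 bp the mean was 0.92 for the members and 1.00 for the mitochondrial set. Upstream of -2000 bp all of these sets lay below 0.

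**Figure D3:**
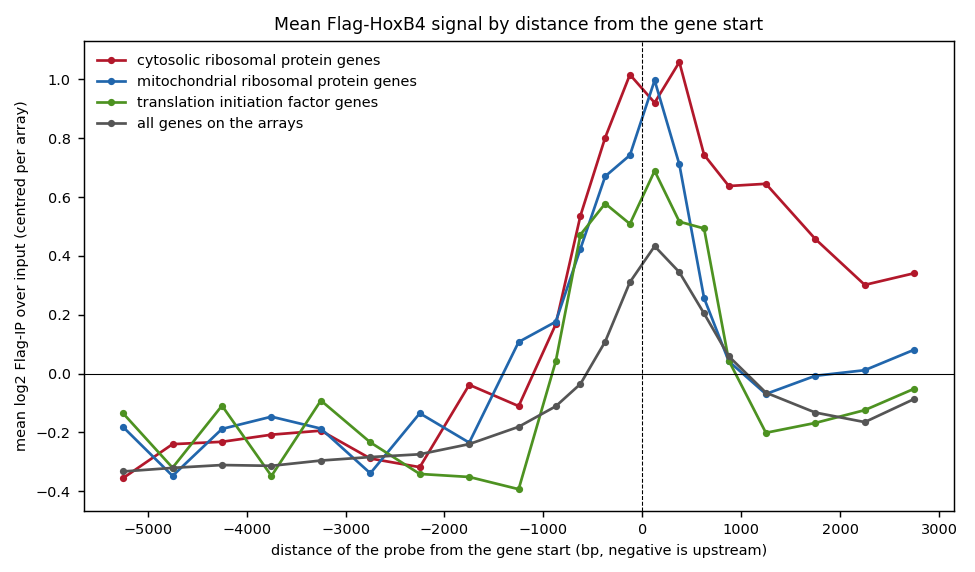
Mean log2 Flag-IP over input by distance of the probe from the gene start in bp, in steps of 250 or 500 bp, for the cytosolic ribosomal protein genes, the mitochondrial ribosomal protein genes, the translation initiation factor genes and all genes. The 4 lines rise around the start, and beyond 1000 bp the line of the cytosolic ribosomal protein genes stays above 0 while the other lines lie between -0.20 and 0.08.

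The inside-gene mean, a span set after this profile was seen, was above 0 in 64 of the 78 members with probes there (82.1%), where the background was 43.9%. Its median was 0.53 for the members (quartiles 0.23 and 0.77), against -0.10 for 15707 genes. Both subunits showed it, with medians of 0.49 over 46 large-subunit genes and 0.57 over 32 small-subunit genes. It was not particular to the members. Of the 13 other translation genes described below, 10 (76.9%) had an inside-gene mean above 0, with a median of 0.27. An inside-gene mean of 1 or more was found in 3 of these 13 (23.1%) and in 8 members (10.3%), with a background of 2.59%. Among genes with a near-start mean of 1 or more, the median inside was 0.58 for 30 members and 0.12 for 1776 genes. Input was brighter there too, 10.20 for the members and 9.58 for all genes on the log2 scale, and the 4215 genes with input between the members' quartiles had a median of 0.14. With the brightness trend removed by loess the members' median was 0.19, against -0.01 for all genes.

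Of the 448 pairs of a probe and a member in this span, 86.4% were marked as inside the gene and 13.6% as downstream of it, against 93.6% and 6.42% for all genes. Over probes marked as inside alone, the members' median was 0.56 and that of all genes -0.06. Many ribosomal protein genes have processed copies, made from their mRNA, elsewhere in the mouse genome. The files hold no probe sequences, so whether such copies added to the signal of probes in exons was not tested. Over probes upstream of the start, the members' median near-start mean was 0.80 and that of all genes 0.26, which says nothing about the probes inside the gene.

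The members named for this span, from its highest and lowest ends, were chosen after their values were seen. Rpl13a led with 1.90 ± 0.50 (SD, 9 probes), and Rpl13 had 1.62, Rpl3 had 1.16 and Rpl7a had 1.14. The probes of Rpl13a in this span ran from 0.98 to 2.49, so every one of them was well above 0. Rpl19, a large-subunit gene, had only 0.40 near its start and 1.07 inside, with its highest window of 1.26 at 1367 bp.

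At the low end Rps27l had -1.21 ± 0.65 (SD, 6 probes), Rpl36al had -0.80, Rpl24 had -0.67, Rpl27a had -0.53 and Rpl5 had -0.52. Rps27l and Rpl5 had high starts, with near-start means of 1.39 and 1.30, so their signal was high around the start and below 0 inside. Rpl36a had the same shape, with 1.97 near the start and -0.21 inside.

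**Figure D4:**
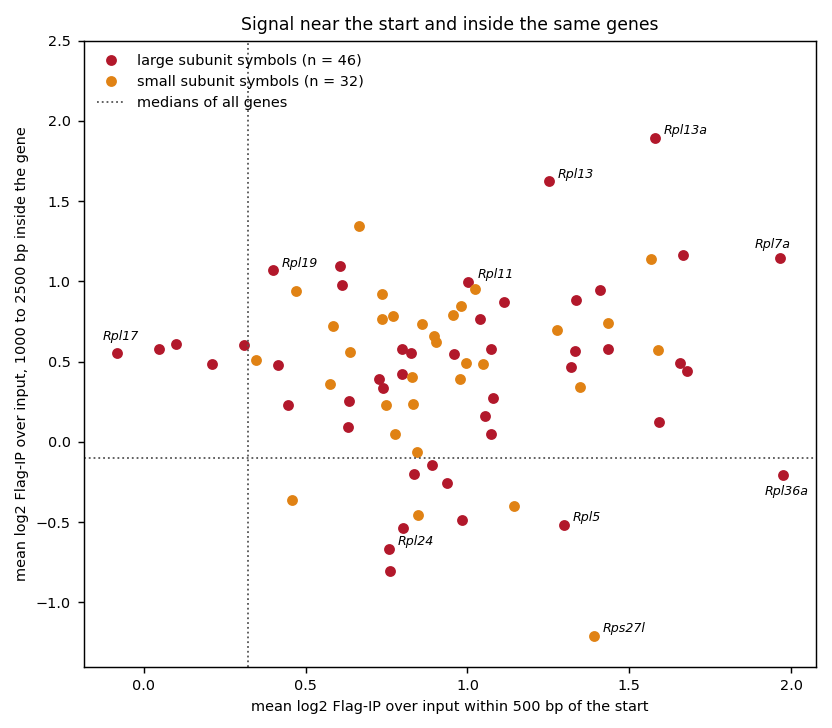
Inside-gene mean against near-start mean for the 78 members with probes in both spans, in log2 Flag-IP over input, coloured by subunit, with dotted lines at the medians of all genes (0.32 and -0.10). Rpl13a is high on both axes, Rpl17 is low near the start and at 0.55 inside, and Rpl5, Rpl36a and Rps27l are high near the start and below 0 inside.

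The 2 subunits had nearly the same median window, 1.46 for the large subunit and 1.47 for the small one, and differed in spread. The SD of the near-start mean was 0.51 over the 48 large-subunit genes and 0.31 over the 33 small-subunit genes. A near-start mean of 1 or more was found in 23 large-subunit genes (47.9%) and 9 small-subunit genes (27.3%), where the background over all genes was 11.5%. Of the acidic stalk proteins, which recruit elongation factors, Rplp1 had a window of 1.68 at -41 bp and a near-start mean of 1.32. Rplp2 had 0.82 near the start, and its highest window of 0.91 lay at -3794 bp. Arbp, the gene of the third stalk protein, had a window of 0.79 and a near-start mean of 0.36. Rpsa, which encodes a small-subunit protein also known as the laminin receptor, had 0.47 near the start and its window of 1.49 at 2767 bp.

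Of the 5 paralogues, 2 lay further below their parent genes near the start than the SD over probes of either gene. Rpl22l1 and its parent Rpl22, which mouse T-cell development requires, were close, with near-start means of 1.59 and 1.43. The p53-induced Rps27l had 1.39 ± 0.56 (SD, 4 probes), against 0.85 ± 1.06 (SD, 4 probes) for Rps27, and Rpl7l1 had 0.83 ± 0.99 (SD, 6 probes), against 0.41 ± 0.49 (SD, 5 probes) for Rpl7. Both of these pairs overlapped within the spread of their probes. Rpl3l had 0.31 ± 0.27 (SD, 5 probes), against 1.66 ± 0.35 (SD, 7 probes) for Rpl3. Rpl36al had 0.76 ± 0.17 (SD, 3 probes), against 1.97 ± 0.49 (SD, 6 probes) for Rpl36a.

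A list of 19 members is mutated in human Diamond-Blackfan anaemia, a failure of red cell production. Their median window was 1.39 and their median near-start mean 0.83, against 1.48 and 0.95 for the other 62 members. A window of 1 or more was found in 16 of the 19 and a window of 2 or more in 0, against 50 and 9 of the other 62, where the background over all genes was 43.3% at 1 or more and 3.15% at 2 or more. At that background, a count of 0 in 19 genes says nothing about the list. Rps19, the gene most often mutated in that disease, had a window of 1.59 at -621 bp with a wide range of probes (-0.19 to 2.09) and 0.74 near the start. Rpl35a was the highest of this list near the start, with 1.68, and Rpl31 the lowest, with 0.10. Near the start Rpl27 (1.33), Rpl5 (1.30), Rpl18 (1.04) and Rpl11 (1.00) were also at 1 or more. Of the others, the following lay between the median of all genes and 1: Rps29 at 0.99, Rps28 at 0.96, Rps27 at 0.85, Rps26 at 0.84, Rps7 at 0.83, Rpl35 at 0.80, Rps15a at 0.64, Rpl26 at 0.63, Rps24 at 0.46 and Rps10 at 0.35. Rpl31 and Rpl15 (0.21) lay below that median. The list holds proteins of both subunits. Rps14, whose loss underlies the anaemia of the human 5q- syndrome, had a window of 1.61 and a near-start mean of 0.90, close to the median of the members.

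Rpl5 and Rpl11, which together with the 5S RNA hold Mdm2 when ribosome assembly fails and so stabilise p53, were both above the median. Rpl5 had a window of 1.95 at 196 bp, with probes of 2.17 at 76 bp, 1.32 at 196 bp and 1.95 at 349 bp. Outside this window it had probes of 1.56 at -33 bp and 2.40 at 516 bp, and of -0.51 at -480 bp and at 1236 bp further out. Rpl11 had a window of 1.84 at 591 bp, with probes of 1.84 at 428 bp, 1.90 at 591 bp and 0.51 at 944 bp. Its probe at 48 bp, outside the window, stood at 0.12. The 2 genes differed in shape, since the inside-gene mean was -0.52 for Rpl5 and 1.00 for Rpl11. Rpl38, which is required for translation of Hox mRNAs in the mouse embryo, was looked at after its values were seen. It had a window of 1.88 at -27 bp, a near-start mean of 1.41 ± 0.74 (SD, 4 probes) and an inside-gene mean of 0.94.

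A group of 10 members had the start of another gene within 1000 bp. Their median near-start mean was 1.09, against 0.86 for the other 71. Among them Rps18 had 1.28 and its partner Vps52, 170 bp away, had 1.42, while Rps25 had 1.35 and its partner Trappc4, 165 bp away, had 1.06. Rpl36al had 0.76 and Mgat2, 172 bp away, had 0.43. The spans around the starts of these pairs overlap, so their values are not independent.

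Other genes of translation on the arrays were a mixed group. Of 15 listed genes, 13 were on the arrays under the symbols used, 9 had a window of 1 or more (background 43.3%) and 0 had one of 2 or more (background 3.15%), with a median near-start mean of 0.46 over 12 genes, against 0.32 over all genes. Gnb2l1, an older symbol of the ribosome scaffold gene Rack1, had 1.49 near the start, and Eef1b2, an elongation factor subunit, had 1.15. Fau, which encodes a ribosomal protein fused to a ubiquitin-like protein, had 0.43. The elongation factor genes Eef1a1 (0.33), Eef2 (0.47) and Eef1d (0.44) had low starts and windows of 1.23, 1.39 and 1.69 well inside the gene. The other listed genes lay between 0.24 and 0.73 near the start, or, for Nap1l1, had no probe there.

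**Figure D5:**
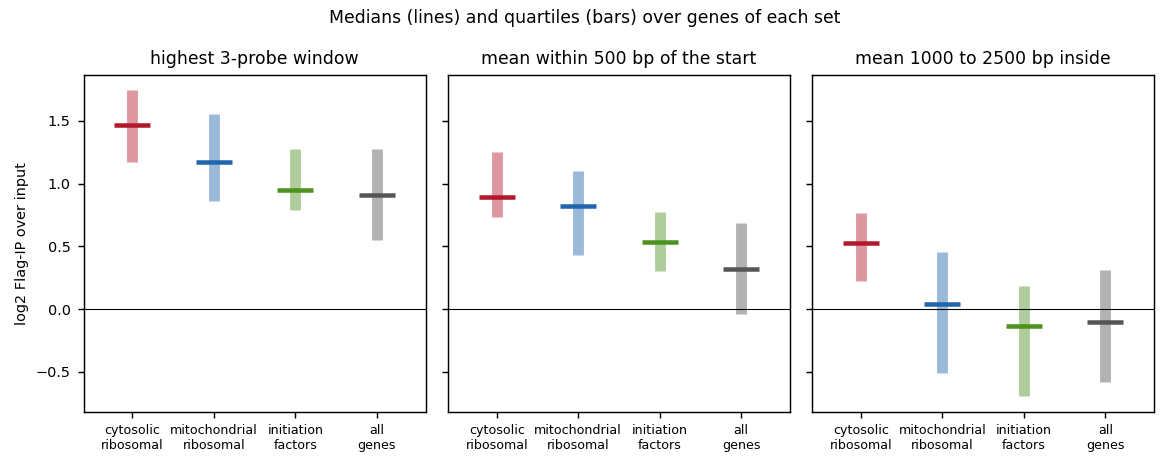
Median (line) and quartiles (bar) over genes of the highest window, the near-start mean and the inside-gene mean, in log2 Flag-IP over input, for the cytosolic ribosomal protein genes, the mitochondrial ribosomal protein genes, the initiation factor genes and all genes. The cytosolic and mitochondrial sets are close near the start (0.90 and 0.82) and apart inside the gene (0.53 and 0.04).

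RefSeq promoters were matched to 61 of the 81 members, as 72 promoter entries. Their median GC content was 57.0%, against 58.2% for all genes. The median number of CG pairs per promoter was higher, 22 for the members and 16.3 for all genes. The 3983 genes with GC content between the members' quartiles had a median near-start mean of 0.49, where the 32 members in that band had 0.97. No such band was made for CG pairs. The TAAT core was present in 44.4% of member promoters, against 49.0% of all promoters of the same length. Members with a TAAT core had a median near-start mean of 0.96 (n = 29), and members without one had 0.84 (n = 32). Over all genes the order was the other way, 0.28 for 6745 genes with a TAAT core and 0.39 for 5950 genes without one. The composite site TGATNNAT of Hox proteins with Pbx partners was present in 5.56% of member promoters, against 6.42% of all promoters. Both strands were searched for every motif.

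Other letters were more common in the members. CTTTCC was present in 36 of the 72 member promoters, against 26.5% of all promoters, and overlaps the pyrimidine tracts shown above. GGAAGT, a core bound by ETS factors, was present in 45.8%, against 25.3%. TATAAA was found in 8.33% of member promoters, against 11.5%, and CCAAT in 30.6%, against 38.0%. TATAAA was counted anywhere in the promoter, without regard to its distance from the start, so it need not be a TATA box. The 6 members with TATAAA (Rpl36a, Rpl39, Rpl22l1, Rps2, Rpl22 and Rps28) had near-start means from 0.96 to 1.97 with a median of 1.51, against 0.85 for the 55 without it. Over all genes the order was the other way, 0.05 for 1696 genes with TATAAA and 0.37 for 10999 genes without it. The value of Rps28 rests on 1 probe, and Rpl22 and Rpl22l1 are paralogues.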

How the data were processed

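Flag-IP and input DNA of 1 group were measured on 2 Agilent promoter arrays, 1 for each set of promoters. Per the file headers, the authors deposited Feature Extraction output (version 10.1.1.1) with processed Cy5 and Cy3 intensities, background-subtracted, detrended and scaled linearly per dye, and a log10 ratio per probe. The submitters' processing notes also name Agilent Feature Extraction. Control and outlier spots and probes without a position were left out. From the deposited processed intensities, Flag-IP was divided by input, log2 was taken and each array was centred on its median. Windows were medians of 3 consecutive probes with starts spaced by no more than 1000 bp, and a window counted for a gene if 1 of its probes was annotated to it. The deposited value tables held the same ratio on the log10 scale, to within 5.0e-06.

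Members and gene lists were chosen with earlier results of these data known, and the span from 1000 to 2500 bp was set after its profile was seen. Named genes were the 10 highest and 5 lowest members by highest window and by near-start mean, all members of the stalk, paralogue, X-linked, p53, Diamond-Blackfan and 5q- lists, and the listed translation genes, and a few genes that fall under this rule are not reported here. Depth is not defined for arrays, and their number limits the precision. No test was made, as each promoter has 1 array and the rule used the contrast itself. The scripts were tested on simulated data. Alternatives used limma 3.58.1 in R 4.3.3 for normexp (offset 50) and loess, and the rest used Python 3.11.15 with pandas 2.3.3. RefSeq promoters (GRCm38.p6) were matched by transcript or symbol. The expression arrays were not used.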

Additional observations from a re-analysis of the deposited data

How the results depend on the processing

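Of 67 values of 5 results recomputed under other settings, 46 stayed within the limits set for each result, 21 moved and none turned sign. For counts the limit was a ratio of 1.5, so 47 members with a window of 1 or more under loess, against 66, counted as unmoved. The unmoved values include those from the deposited log ratios and value tables, which gave the main values again. In all 67 the value of the members was above that of all genes under the same setting. Nothing is read from this order, as the rule used these values or, for the inside-gene mean, the span was set after its profile was seen. With normexp, 16 members (19.8%, against 4.87% of all genes) had a window of 2 or more, and the medians were 1.12 near the start and 0.65 inside the gene. With the brightness trend removed by loess, 3 members (3.70%, against 1.18%) had a window of 2 or more, and the medians were 1.07 for the highest window, 0.58 near the start and 0.19 inside. Windows of 5 probes left 3 members at 2 or more (3.70%, against 1.18%) and a median of 1.13, and single probes gave 28 members (34.6%, against 12.8%) and 1.79. Probes upstream of the start left 34 of 74 members at 1 or more (45.9%, against 24.6% of all genes) and 5 at 2 or more (6.76%, against 1.55%), with medians of 0.93 and 0.80 for the highest window and the near-start mean. A span of 1000 bp gave a near-start median of 0.73. Array 1 alone held 29 of 36 members at 1 or more (80.6%, against 45.9% of its genes) and 4 at 2 or more (11.1%, against 3.51%). Array 2 alone held 37 of 45 at 1 or more (82.2%, against 40.75% of its genes) and 5 at 2 or more (11.1%, against 2.78%). Without the 5 paralogues and the 1 member that is no structural protein, 62 of 75 members (82.7%, against 43.3% of all genes) had a window of 1 or more. Without centring the inside-gene median was 0.60. The cause of these shifts was not tested, except that the single-array counts have fewer genes.

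The alternatives for the inside-gene mean, the assignment of windows by their central probe, the windows within 1000 bp of the start and the counts without X-linked members were chosen after seeing the data. No paired analysis was possible because the promoter arrays hold 1 group, and the replicate numbers in the labels belong to the expression arrays, which were not used. Signal over background was not limiting near the starts of the members, but 1 array per promoter gives no replicate error for any value.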
